A study of Homo sapiens with 2 samples.

Results

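In the Flag-HOXA5 over-expressing cholangiocarcinoma cells, 650 of 8043 CUT & Tag peaks (8.08%, 95% exact interval 7.50 to 8.70) lay at the ends of genes that do not code for protein, away from any protein-coding end and without a peak in the control cells. CUT & Tag is an assay in which an antibody guides a transposase to the chromatin of intact nuclei, so that the cut fragments mark where the antibody's target sits. A peak was taken where its edge lay within 1000 bp of an end of a GRCh38 RefSeq gene of a non-coding class (lncRNA, tRNA, snRNA, miRNA, pseudogene and the like), where no protein-coding gene had an end that close, and where it shared no base with a control peak. The ends are the outermost positions of each gene. Further annotated starts inside a protein-coding gene were not counted as ends, so some of these peaks may lie at such starts. The 650 peaks lay at 775 different non-coding genes, which is 1.98% of the 39119 such genes placed on chromosomes. One gene lay within that distance for 523 of the peaks, and 127 peaks had 2 or more, up to 4.

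The study asked which genomic sites HOXA5 occupies in extrahepatic cholangiocarcinoma. TFK-1, an established cell line from such a tumor, was transduced with a lentivirus for Flag-tagged HOXA5 (LV-HOXA5) or with the negative control virus (LV-HOXA5-NC), selected with puromycin, and both lines were profiled with an anti-Flag antibody. Each condition had 1 library, so no difference between conditions or between groups of peaks was tested, the intervals below cover counting error only, and clonal or culture differences between the lines cannot be told apart from the transgene. The antibody reads the tag of an over-expressed protein, not the HOXA5 of unmodified cells.

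Genes for short structural RNAs are transcribed by their own machinery. RNA polymerase III makes the tRNAs, 5S rRNA, 7SL RNA, the U6 and U6atac snRNAs and the vault and Y RNAs. RNA polymerase II makes the other spliceosomal snRNAs and U3 snoRNA from compact promoters, and lncRNAs from promoters like those of mRNA genes. Many of these genes exist in near-identical copies, and most pseudogenes are copies of other genes, so a read may fit several places. How reads with several equal placements were handled is not given in the sources used here, and the split of signal between copies is uncertain throughout.

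Promoter sequence could be read for lncRNA genes. RefSeq windows (GRCh38, from 250 bases before to 50 bases after an annotated start) were at hand for 277 of the 394 lncRNA genes with one of these peaks, and a peak summit fell inside 78 such windows at 73 peaks. The 7 of these with the highest pileup, the last 3 tied at 32 fragments, are printed because they show the sequence directly under a summit, 5′ to 3′ on the gene's strand. Capitals mark, on either strand, the letters TAATTA (a homeodomain motif), TATAAA (the TATA box), CCAAT (the CCAAT box), CACGTG (an E-box), TGANTCA (the AP-1 core) and GGGCGG (the GC box). Shorter or other homeodomain sites were not searched for.
LOC101928419, chr5:56123851-56124150, plus strand: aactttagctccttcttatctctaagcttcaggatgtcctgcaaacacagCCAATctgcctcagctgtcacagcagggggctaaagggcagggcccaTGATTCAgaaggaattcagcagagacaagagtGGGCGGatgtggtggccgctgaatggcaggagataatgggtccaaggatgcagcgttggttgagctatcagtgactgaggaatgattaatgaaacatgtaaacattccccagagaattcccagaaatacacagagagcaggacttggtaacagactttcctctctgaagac
SNHG29, chr17:16438737-16439036, plus strand: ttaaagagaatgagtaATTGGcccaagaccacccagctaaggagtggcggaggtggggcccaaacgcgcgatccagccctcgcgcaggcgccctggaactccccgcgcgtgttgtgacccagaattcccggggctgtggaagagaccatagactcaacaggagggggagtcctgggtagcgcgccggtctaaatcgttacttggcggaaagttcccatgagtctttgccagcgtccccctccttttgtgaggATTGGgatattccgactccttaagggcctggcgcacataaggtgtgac
HEXIM2-AS1, chr17:45161489-45161788, minus strand: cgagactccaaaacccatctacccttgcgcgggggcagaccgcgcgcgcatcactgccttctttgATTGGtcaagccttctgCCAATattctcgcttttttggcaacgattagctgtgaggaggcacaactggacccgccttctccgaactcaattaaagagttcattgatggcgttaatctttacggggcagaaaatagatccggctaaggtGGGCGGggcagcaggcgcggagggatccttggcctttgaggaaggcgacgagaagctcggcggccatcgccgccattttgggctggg
LOC107985720, chrX:47129074-47129373, plus strand: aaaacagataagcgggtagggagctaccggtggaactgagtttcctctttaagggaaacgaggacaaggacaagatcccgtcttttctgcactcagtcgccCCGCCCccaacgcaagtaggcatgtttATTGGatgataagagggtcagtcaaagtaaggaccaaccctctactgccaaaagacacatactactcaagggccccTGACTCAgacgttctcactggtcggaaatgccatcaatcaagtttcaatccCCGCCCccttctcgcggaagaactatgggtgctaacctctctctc
LINC02739, chr11:59566081-59566380, minus strand: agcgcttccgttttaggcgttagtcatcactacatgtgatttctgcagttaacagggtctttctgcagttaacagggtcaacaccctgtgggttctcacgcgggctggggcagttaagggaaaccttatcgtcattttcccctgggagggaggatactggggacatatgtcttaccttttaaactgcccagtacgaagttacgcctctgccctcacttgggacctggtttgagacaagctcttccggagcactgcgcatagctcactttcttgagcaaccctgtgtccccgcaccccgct
LURAP1L-AS1, chr9:12814340-12814639, minus strand: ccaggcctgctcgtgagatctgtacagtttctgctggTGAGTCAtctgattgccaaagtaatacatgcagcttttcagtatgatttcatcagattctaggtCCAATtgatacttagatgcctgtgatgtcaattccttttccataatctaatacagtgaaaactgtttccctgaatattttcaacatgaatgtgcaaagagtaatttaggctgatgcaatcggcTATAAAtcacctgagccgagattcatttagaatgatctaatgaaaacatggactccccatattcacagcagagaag
SLC25A28-DT, chr10:99620595-99620894, plus strand: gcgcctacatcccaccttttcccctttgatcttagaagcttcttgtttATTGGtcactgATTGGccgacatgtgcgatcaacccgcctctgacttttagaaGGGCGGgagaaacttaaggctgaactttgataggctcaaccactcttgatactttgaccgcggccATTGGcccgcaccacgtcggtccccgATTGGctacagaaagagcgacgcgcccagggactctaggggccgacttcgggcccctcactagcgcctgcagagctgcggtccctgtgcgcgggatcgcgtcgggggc

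The windows of LOC101928419, LOC107985720 and LURAP1L-AS1 hold the AP-1 letters as well as a CCAAT box, and that of LURAP1L-AS1 also holds the TATA letters. SNHG29, a snoRNA host gene, and HEXIM2-AS1, opposite the gene of a 7SK-binding protein, hold 2 matches to CCAAT each, counting both strands. The LINC02739 window holds none of the 6 motifs, and the nearest end to its peak was that of TRF-GAA2-1, a phenylalanine tRNA gene. SLC25A28-DT, a divergent transcript gene, holds 4 matches to CCAAT and 1 GC box. No window of the 7 holds TAATTA, which does not tell whether shorter homeodomain sites are present. A match is a run of letters, not a shown binding site, and the summit lay between 175 bases before the start (HEXIM2-AS1) and 33 bases after it (LOC107985720).

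The control library was much shallower. LV-HOXA5 had 15778555 fragments and LV-HOXA5-NC 1948734, 12.4% of that, and the control list held 635 peaks. Scaled to the control depth, the pileup of these peaks, that is the number of fragments stacked over the summit, had a median of 2.22 fragments, while the lowest pileup in the control list was 4. Only 106 of the 650 (16.3%) would reach that level. The absence of a control peak was therefore not informative at this depth for most of them.

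Before peaks with a control overlap were set aside there were 691 peaks at non-coding ends only, and 41 of them (5.93%, 4.29 to 7.96) overlapped a control peak. The share was 0.663% (0.363 to 1.11) at protein-coding ends, 14 of 2112 peaks, and 11.7% (10.6 to 13.0) outside genes, 337 of 2869 peaks. The 41 were tall, with a median pileup of 120 fragments. Of these, 19 lay nearest a pseudogene and 11 nearest a lncRNA, and none nearest a tRNA gene.

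Genes for snRNAs and tRNAs were hit far more often than lncRNA genes or pseudogenes. Among the 149 snRNA genes, 43 (28.9%, 21.7 to 36.8) had one of these peaks, and among the 451 tRNA genes 106 did (23.5%, 19.7 to 27.7). For lncRNA genes the count was 394 of 18010 (2.19%, 1.98 to 2.41), and for pseudogenes 190 of 16860 (1.13%, 0.973 to 1.30). Among the smaller classes, rRNA genes stood higher still, at 11 of 31 (35.5%, 19.2 to 54.6), and at 58.1% with any LV-HOXA5 peak. Vault RNA and 7SL RNA genes each had 3 of 4 and Y RNA genes 2 of 4. With only folds at or above the median of all LV-HOXA5 peaks, the snRNA share was 13.4% and the tRNA share 9.09%. Counting any LV-HOXA5 peak within 1000 bp of an end, 6.91% of all 58998 genes, 13.1% of protein-coding genes and 3.75% of the others had one, against 38.3% of snRNA genes and 37.7% of tRNA genes. The tRNA count includes the 22 mitochondrial genes, all with an LV-HOXA5 and a control peak, and without them it was 148 of 429 (34.5%). Small nucleolar and microRNA genes, many of which lie inside introns, stood at 0.838% (10 of 1193) and 0.627% (12 of 1913) for the peaks described here, and none of 51 scaRNA genes had any LV-HOXA5 peak.

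**Figure D1:**
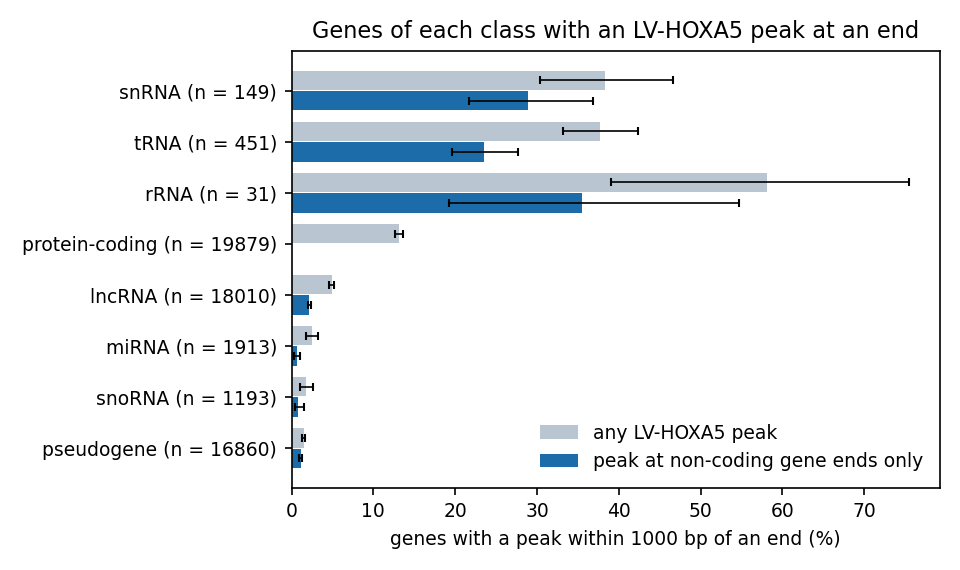
Share of the genes of each class (%) with any LV-HOXA5 peak (grey) and with one of the 650 peaks at non-coding gene ends only (blue) within 1000 bp of an end, with exact 95% intervals as lines. The rule fixes the blue value of protein-coding genes at 0, and the rRNA, snRNA and tRNA shares of 35.5%, 28.9% and 23.5% stand above the lncRNA share of 2.19%.

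By the nearest end, 347 of the peaks (53.4%, 49.5 to 57.3) belonged to a lncRNA, 162 (24.9%, 21.6 to 28.4) to a pseudogene, 71 (10.9%, 8.63 to 13.6) to a tRNA gene and 41 (6.31%, 4.56 to 8.46) to a snRNA gene. The remaining 29 split into 9 miRNA, 7 rRNA, 7 snoRNA, 2 vault RNA and 2 7SL RNA peaks, 1 Y RNA peak and 1 peak of an antisense RNA. Class here is a matter of position, and a peak can have ends of several genes beside it.

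The peaks were close in height to those at protein-coding ends and sat on slightly more background. Their median pileup was 18 fragments (quartiles 14 and 26, range 8 to 1513) and their median fold enrichment 4.57 (3.95 and 5.49), where the fold is taken within the library, as pileup over local background with 1 added to both. At the 2098 protein-coding-end peaks without a control peak the medians were 17 fragments and 4.88. The local background, recovered from both values, had a median of 2.99 fragments (exact 95% interval over peaks 2.88 to 3.16) at the non-coding ends. At the protein-coding ends the median background was 2.58 (2.54 to 2.65). Peaks inside genes and outside genes had still lower medians, 2.52 and 2.29. The pileup ranges of all these groups overlapped widely.

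Between the classes, snRNA peaks were the tallest of the 4 large ones. Their median pileup was 29 fragments (interval 21 to 54), against 19 (17 to 22) for tRNA, 18 (17 to 20) for pseudogene and 17 (16 to 18) for lncRNA peaks. Median fold enrichment lay close together, at 4.75 for snRNA, 4.70 for lncRNA, 4.50 for tRNA and 4.39 for pseudogene peaks. The snRNA peaks also had the highest local background of the 4, with a median of 4.60 fragments. A background of 10 fragments or more was found at 42 of the 650 peaks (6.46%). These were 13 of 41 snRNA peaks, all 7 rRNA peaks, 17 of 162 pseudogene peaks, 3 of 9 miRNA peaks, 2 of 347 lncRNA peaks and no tRNA peak. Such a background was also found at 21 of 2098 protein-coding-end peaks (1.00%), 26 of 2319 inside genes (1.12%) and 125 of 2532 outside genes (4.94%).

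**Figure D2:**
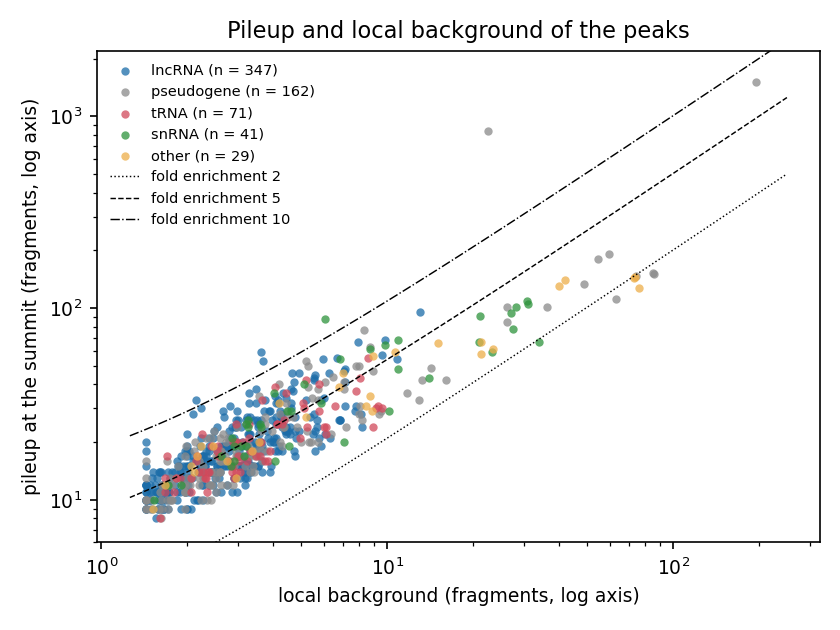
Pileup at the summit against local background of the same peak (fragments, both log axes) for the 650 peaks, coloured by the class of the nearest end, with lines at fold enrichments of 2, 5 and 10. The pseudogene peaks at MTATP8P1 and MTCYBP13, at 1513 and 836 fragments, stand above all others, and 42 peaks have a background of 10 or more.

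Peaks of snRNA and tRNA genes lay closer to a gene end, and a short gene has no point far from an end, whereas a lncRNA peak away from an end may lie inside its gene. An end lay inside the peak in 34 of 41 snRNA peaks (82.9%, 67.9 to 92.9) and in 50 of 71 tRNA peaks (70.4%, 58.4 to 80.7), but in 157 of 347 lncRNA peaks (45.2%, 39.9 to 50.7) and 50 of 162 pseudogene peaks (30.9%, 23.9 to 38.6). Over all classes it was 307 of 650 (47.2%). The shares depend on the distance chosen, and with 3000 bp in place of 1000 bp they were 27.4% for lncRNA and 18.3% for pseudogene peaks, while with only folds at or above the median of all LV-HOXA5 peaks that of pseudogene peaks was 48.2%. Only 3 tRNA peaks and 3 snRNA peaks lay more than 250 bp away, against 110 of the lncRNA and 71 of the pseudogene peaks. At the edge of the rule, 21 peaks lay in the last 100 bp before the limit of 1000 bp, and 19 peaks in the next 100 bp were not taken. For the distance from protein-coding ends, 4 peaks stood within the 100 bp beyond the limit and 10 within the 100 bp before it were not taken.

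**Figure D3:**
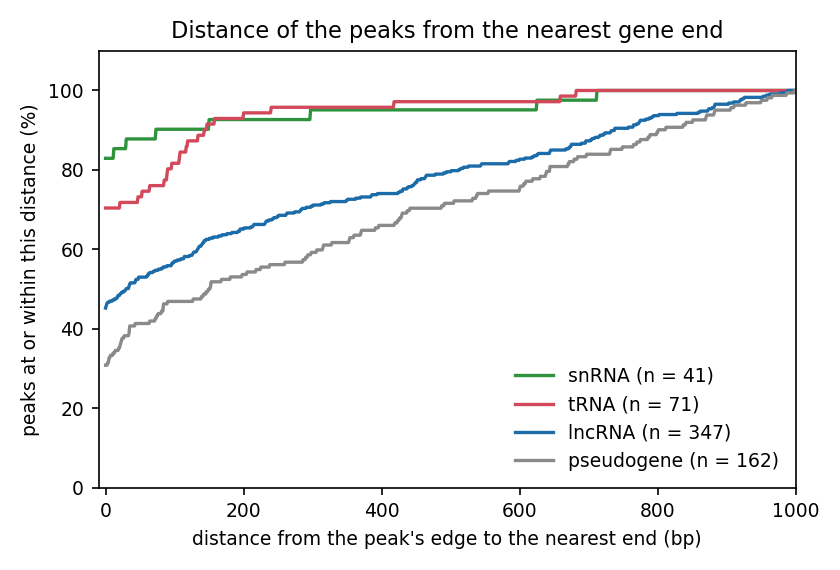
Cumulative share (%) of the peaks of the 4 large classes against the distance from the peak's edge to the nearest non-coding gene end (bp, 0 for an end inside the peak). The curves of snRNA and tRNA start at 82.9% and 70.4%, those of lncRNA and pseudogenes at 45.2% and 30.9%.

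Peaks at spliceosomal snRNA genes ranged from below the overall median of 18 fragments to well above it. U1 snRNA pairs with the start of most introns, and 18 of its 21 genes and variant genes in the table (85.7%, 63.7 to 97.0) had one of these peaks, beside 28.9% of all snRNA genes and 1.98% of all non-coding genes. The peak of RNU1-2 (chr1:16895967-16896907) reached 88 fragments, a fold of 12.6 over its background of 6.05. RNU1-1 (chr1:16512743-16514496) had 68 fragments and a fold of 5.77, and RNU1-3 (chr1:16665988-16667360) 64 fragments and a fold of 5.99. RNU1-4 (chr1:16740137-16741467) had 68 fragments and a fold of 6.36, in a peak whose nearest end was that of the lncRNA gene LOC124903859. All 4 lay on the short arm of chromosome 1, and the variant U1 genes lay farther along the same chromosome, among them RNVU1-18 (chr1:143728916-143729575) with 36 fragments and a fold of 7.37. The 16 peaks nearest a U1 gene ran from 10 to 88 fragments and from 4.36 to 12.6 in fold.

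All 5 genes of U5, which holds the exons in place during splicing, had a peak. RNU5A-1 (chr15:65295823-65296802) reached 54 fragments at a fold of 7.03 and RNU5B-1 (chr15:65304674-65305602) 61 fragments at 6.38. RNU5D-1, RNU5E-1 and RNU5F-1 on chromosome 1 were lower, at 24, 19 and 15 fragments. Of the minor spliceosome, which removes a rare kind of intron, RNU4ATAC had a peak of 17 fragments and RNU6ATAC one of 12. Over the list of spliceosomal and related snRNA genes, 11 of 19 names had one of these peaks, 7 had an LV-HOXA5 peak that was set aside because a protein-coding end lay near (RNU2-2P and RNU2-2, which name the same gene, RNU4-1, RNU4-2, RNU7-1, RNU11 and RNU12), and RNU2-1 had none. Every name but RNU2-1 thus had an LV-HOXA5 peak, beside 3.75% of all non-coding genes. Of 3 snRNA genes named as U2, 2 had any LV-HOXA5 peak. The list goes by gene name and does not hold snRNA genes known by LOC numbers.

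A second set of snRNA peaks looked different. A row of 14 snRNA genes with LOC numbers on chromosome 17 (chr17:43233790-43368087), 11 of them 191 bp long, carried 10 of these peaks with pileups of 19 to 109 fragments. Any LV-HOXA5 peak was found at 13 of the 14, beside 38.3% of all snRNA genes. Which snRNA these entries encode was not determined, so they may include genes of the spliceosome. LOC124904136 (chr17:43240921-43241329) was the tallest of the 41 snRNA peaks at 109 fragments, with a fold of 3.45, LOC124904143 had 105 and 3.32, LOC124904145 102 and 3.51, LOC124904135 94 and 3.37, and LOC124904146 91 and 4.15. Their local background had a median of 27.3 fragments, and 6 of the 14 genes had a control peak. The 6 LV-HOXA5 peaks of the row that were set aside for a control overlap were taller, from 110 fragments at LOC124904139 to 394 at LOC124904138, with folds from 3.93 at LOC124904141 to 12.35 at LOC124904138. The 4 peaks of SNAR genes, on chromosome 19, had folds of 2.60 to 4.13. This row and the SNAR genes were described after their values were seen. Without peaks of background 10 or more, 21.5% of snRNA genes had a peak in place of 28.9%, and with only folds at or above the median of all LV-HOXA5 peaks it was 13.4%.

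Of 429 nuclear tRNA genes, 106 had one of these peaks, 42 had an LV-HOXA5 peak near a protein-coding end instead, and 281 had none. No nuclear tRNA gene had a control peak, beside 90 of all 39119 non-coding genes (0.230%), the 22 mitochondrial tRNA genes included. None of 429 is close to that low share. Scaled to the control depth, only 8 of the 71 tRNA peaks would reach the lowest control pileup. The absence was therefore not informative for most of them. The peaks ran from 8 to 55 fragments and from 2.52 to 7.94 in fold. The tallest lay at TRV-CAC1-4, a valine tRNA gene (chr5:181173559-181174197), with 55 fragments and a fold of 5.87. TRV-CAC1-2 (chr5:181096940-181097518) followed with 43 fragments and TRP-AGG2-6, a proline gene (chr14:20613259-20613853), with 42. TRQ-TTG1-1, a glutamine gene on chromosome 17, had 40 fragments, and TRK-TTT3-2, a lysine gene (chr1:204506412-204507098), had 39 at the highest tRNA fold, 7.94. By fold, TRG-CCC1-2 (glycine) and TRL-TAA4-1 (leucine) came next, at 7.32 and 7.07.

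A tRNA gene is much shorter than a peak, with a median length of 73 bp here. The whole gene lay inside 25 of the 71 peaks, and the summit stood a median of 189 bp (quartiles 110 and 283) from the middle of the gene. Since tRNA genes cluster, 76 peaks in all had a tRNA gene within 1000 bp, of which 52 had 1, 18 had 2, 5 had 3 and 1 had 4. The peaks near several genes cannot be split between them.

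By chromosome, the tRNA genes with such a peak were unevenly spread. Chromosome 6, which holds a large tRNA cluster near the histone and MHC genes, had a peak at 23 of 154 genes (14.9%, 9.71 to 21.6), chromosome 1 at 25 of 85 (29.4%, 20.02 to 40.3) and chromosome 17 at 11 of 33. On chromosome 5 it was 14 of 18 (77.8%, 52.4 to 93.6), on chromosome 11 9 of 13 and on chromosome 7 1 of 22. The removal of peaks near protein-coding ends shapes this spread. Counting any LV-HOXA5 peak, chromosome 17 had 20 of 33, chromosome 8 5 of 5 where 1 gene had one of these peaks, and chromosome 2 6 of 8, again with 1. Neighbouring genes share peaks, so these counts are not independent.

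By amino acid, proline (9 of 20 genes, 45%, 23.1 to 68.5), leucine (13 of 32, 40.6%), valine (12 of 30, 40.0%), arginine (9 of 26, 34.6%), asparagine (7 of 21, 33.3%) and histidine (3 of 9, 33.3%) had the highest shares of genes with one of these peaks. Aspartate and serine followed, each at 30.8%, then phenylalanine (27.3%), glutamine (26.3%), lysine (25.9%), initiator methionine (25%), glycine (23.3%) and elongator methionine (18.2%). Threonine (3 of 20, 15.0%), tryptophan (1 of 7), glutamate (2 of 15), alanine (4 of 37, 10.8%), cysteine (3 of 29, 10.3%) and isoleucine (2 of 23, 8.70%) were lowest among those with a peak. The 13 tyrosine genes had none of these peaks, although 4 had an LV-HOXA5 peak near a protein-coding end, and the 2 selenocysteine genes had no LV-HOXA5 peak. The intervals of all isotypes overlapped, proline and alanine (3.03 to 25.4) included, so their order is not resolved. The order also depends on which genes lie near protein-coding ends. Counting any LV-HOXA5 peak, arginine led at 61.5%, then histidine at 55.6% and proline, leucine, valine and initiator methionine at 50%, and tyrosine stood at 30.8%.

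Other polymerase III genes had peaks too. Over the fixed list of 24 such genes, 12 had one of these peaks, from 12 fragments at RNU6ATAC to 66 at RNA5S1, 4 (RN7SK, RMRP, RPPH1 and RNA5S17) had one that a protein-coding end set aside, and 8 had none, beside 1.98% of all non-coding genes with one of these peaks and 3.75% with any LV-HOXA5 peak. RN7SL1 and RN7SL2, which encode the RNA of the signal recognition particle, had 20 and 32 fragments with folds of 4.60 and 6.35, the summits lying 91 and 125 bp from an end. The vault RNA genes VTRNA1-1, VTRNA1-2 and VTRNA1-3 on chromosome 5 had 15, 18 and 19 fragments, the first in a peak whose nearest end was that of the lncRNA gene LOC105378198. Of the Y RNA genes, whose products bind the Ro protein, RNY1 had 21 and RNY5 17 fragments, with folds of 4.38 and 5.71, and RNY3 and RNY4 had no peak. The RNY1 peak also held an end of the lncRNA gene GHET1, 12 bp from the summit, while RNY1 lay 6 bp outside the peak. RNU6-1 had a peak of 16 fragments, and RNU6-7 and RNU6-8 shared a peak of 16, whereas RNU6-2 and RNU6-9 had none.

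U3 snoRNA, which guides the first cuts of pre-ribosomal RNA, had more peaks than other snoRNA genes. All 5 copies on chromosome 17 had a peak with an end inside it, beside 0.838% of all snoRNA genes and 1.98% of all non-coding genes with one of these peaks. SNORD3A (chr17:19187723-19188556) had 56 fragments and a fold of 5.73, SNORD3D 39 and 5.13, SNORD3B-2 35 and 3.72, SNORD3B-1 31 and 3.39, and SNORD3C 29 and 3.04. Their background ran from 6.79 to 8.95 fragments. The other snoRNA peaks were SNORD114-27, in the imprinted cluster of chromosome 14, with 14 fragments, and LOC124906149 with 16. SNORD13 and SNORD118 had peaks near a protein-coding end, and SCARNA2, SCARNA17 and TERC, the telomerase RNA, had none.

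Ribosomal RNA genes gave tall but shallow peaks. At the 5S cluster of chromosome 1, RNA5S10 had 67 fragments and a fold of 3.06 and RNA5S1 66 and 4.16, RNA5S5 and RNA5S14 had 58 and 61, and backgrounds ran from 15.1 to 23.4. At the 45S units of chromosome 21, RNA45SN1 had 146 fragments at a fold of 1.97, RNA28SN3 143 at 1.95 and RNA28SN2 128 at 1.68. These 3 were among the lowest folds of the whole list, at ranks 8018, 8019 and 8037 of 8043. No rRNA peak had an end inside it, the nearest end being a median of 625 bp away. The interval chr21:8204977-8471694 held 10 of the 650 peaks, including MIR6724-1 (141 fragments), MIR6724-3 (130) and 5 at CDC27 pseudogenes, with backgrounds of 39.8 to 86.0. Ribosomal units are repeated many times and only some copies are in the assembly, and the part of copy number in these pileups was not tested.

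LncRNA genes made up the largest class, and most of their peaks were ordinary in height. Peaks of genes named by LOC numbers numbered 190, those of LINC genes 59 and those with antisense names 58. Their median pileups were 17, 18 and 16 fragments. Divergent transcript genes, which start back to back with a protein-coding gene, had 7 of 591 genes (1.18%) with one of these peaks, beside 2.19% of all lncRNA genes, and 114 of 591 (19.3%) with any LV-HOXA5 peak, beside 4.93%. The rule sets aside peaks near an outer end of the coding partner only. The peaks of SLC25A28-DT and MPP7-DT lay inside SLC25A28 and MPP7, 10027 and 31905 bp from the nearest protein-coding end. The tallest peak lay at CCAT1, a colon cancer associated lncRNA (chr8:127218833-127219636), with 96 fragments, a fold of 6.93 and a background of 13.0. LOC107987069, with 67 fragments, lay 979 bp from its peak, near the edge of the rule. LOC124901714 had 57 fragments and a fold of 5.47. FAM230H (chr22:21326166-21326615) had 59 fragments on a background of 3.60 and the highest lncRNA fold, 13.0. LOC124903814 followed at 11.5 with its end 644 bp away, and LOC107985720 on the X chromosome at 10.8, whose promoter is printed above.

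Of 71 listed lncRNA and miRNA genes linked to growth or p53, 6 had one of these peaks, 5 had one near a protein-coding end and 60 had no LV-HOXA5 peak. SNHG29 (chr17:16438636-16439021) had 46 fragments and a fold of 6.47, with the summit 152 bp before the annotated start. The peak at MALAT1, an abundant RNA of nuclear speckles, lay beyond its 3′ end over TALAM1, the antisense RNA of that locus (chr11:65507134-65508440), with 46 fragments, a fold of 5.88 and a distance of 618 bp from MALAT1. CRNDE had 18 fragments, SNHG5 16, FTX 14 and MIR100HG, host of a miRNA cluster, 11. GAS5, TP53TG1, MIR22HG, ZFAS1 and UCA1 were those with a peak near a protein-coding end. NEAT1, TUG1, H19, HOTAIR, HOTTIP, HOTAIRM1 and the miR-34 genes, which are p53 targets, were among those without. The share with any LV-HOXA5 peak, 11 of 71, can be set beside the 4.93% (4.61 to 5.25) of all lncRNA genes and the 2.46% of all miRNA genes, and the 6 of 71 beside 2.19% and 0.627%, but the list was chosen with earlier results known.

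Where strand was known, lncRNA peaks favored the start over the far end of the gene. Of 248 lncRNA peaks whose nearest gene had an annotated start, the 5′ end was the nearest in 193 (77.8%, 72.1 to 82.8). At protein-coding ends it was 1705 of 1783 (95.6%, 94.6 to 96.5). The summit lay within 1000 bp of a start in 182 of the lncRNA peaks, at a median of 175 bp, with 99 summits before and 83 after the start. At protein-coding genes the median was 165 bp, with 1127 before and 511 after. Within 250 bp lay 59.9% of those lncRNA summits and 71.1% of the protein-coding ones. The other 99 lncRNA peaks had no strand information.

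**Figure D4:**
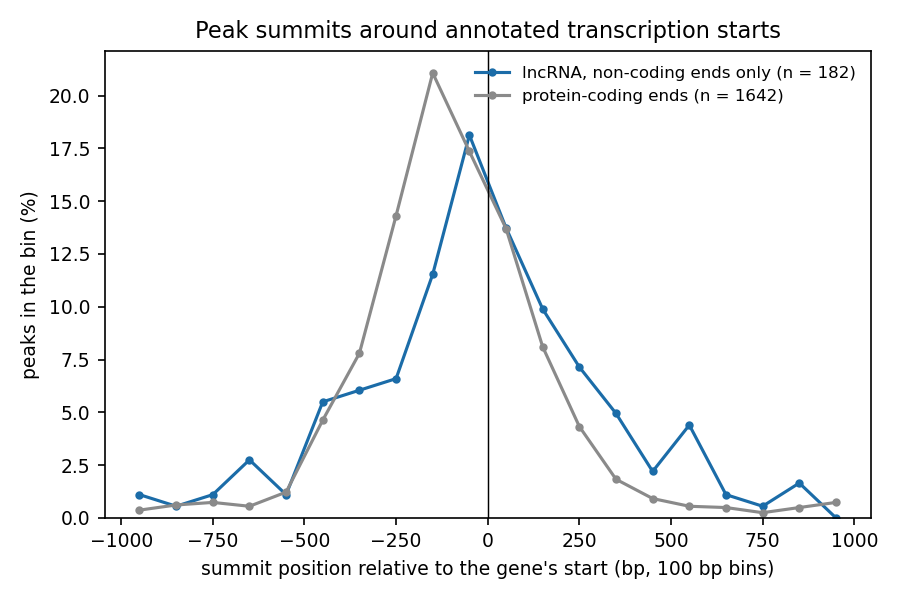
Share of peaks (%) by the position of the summit relative to the nearest annotated start (bp, 100 bp bins, negative values before the start) for the 182 lncRNA peaks and 1642 protein-coding-end peaks with a summit within 1000 bp. Both curves peak within 200 bp before the start, with 99 of 182 and 1127 of 1642 summits before it.

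The lncRNA promoter windows under these peaks held the AP-1 letters more often than lncRNA windows in general. The 169 touched windows belong to 157 genes. Windows of the same gene can overlap and share a match, so they are not independent counts. The touched windows come from peaks away from protein-coding ends, whereas the other lncRNA windows were not limited in this way. That difference was not allowed for. AP-1 is a dimer of JUN and FOS proteins, and its core TGANTCA was present in 46 of the 169 lncRNA windows touched by one of these peaks (27.2%, 20.7 to 34.6), against 10.4% (9.86 to 10.9) of all 12910 lncRNA windows, 3.33% of the 2164 protein-coding windows under an LV-HOXA5 peak and 7.70% of all 35085 windows. The homeodomain letters TAATTA were present in 12 windows (7.1%, 3.72 to 12.1), against 7.33% of all lncRNA windows and 4.84% of all windows. Other forms of homeodomain site were not counted. CCAAT was held by 39.6% and 34.5% of the touched and of all lncRNA windows, GGGCGG by 42.6% and 25.5%, CACGTG by 8.28% and 5.38% and TATAAA by 14.2% and 15.1%. Over all windows these shares were 34.6%, 44.9%, 7.25% and 11.5%. For the CCAAT box, the E-box, the TATA box and TAATTA the interval of the touched windows held the value of all lncRNA windows, taken without regard to base composition.

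Base composition differed too. The touched windows had a median G+C content of 57.3% and 14 CpG, all lncRNA windows 50.0% and 5, and the protein-coding windows under a peak 63.7% and 25. The AP-1 letters were commoner in the touched windows on both sides of 50% G+C. Up to 50%, 26 of 57 touched windows held them (45.6%, 32.4 to 59.3) against 14.0% of all lncRNA windows of that composition, and above 50% it was 20 of 112 (17.9%, 11.3 to 26.2) against 6.65%. The homeodomain letters, close in share over all windows, differed by composition. Up to 50% they were in 6 of 57 touched windows (10.5%, 3.96 to 21.5) against 12.7% (11.9 to 13.5), and above 50% in 6 of 112 (5.36%, 1.99 to 11.3) against 1.82% (1.51 to 2.18), where the intervals overlapped slightly. In 35 of the 46 windows (76.1%) the AP-1 letters lay inside the peak. Over all 46 they lay a median of 131 bp (quartiles 59.5 and 219) from the summit. The other motifs lay inside the peak in 57.1% (CACGTG) to 83.3% (TAATTA) of their windows. Their median distances ran from 112 bp (CCAAT) to 233.5 bp (CACGTG), so the position is not particular to AP-1. The comparison is across windows of 1 library, and neither what makes these windows differ nor whether JUN or FOS was bound there was tested.

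**Figure D5:**
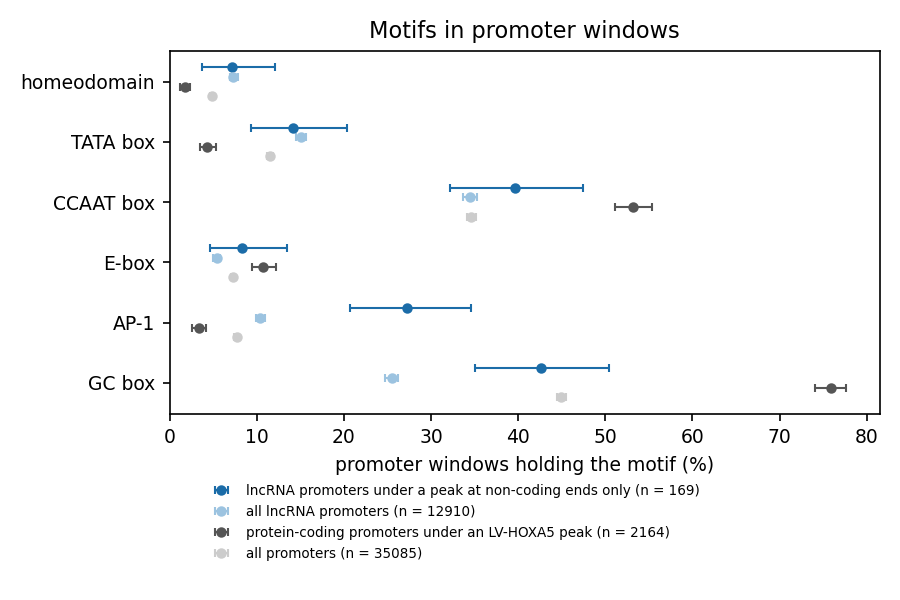
Share of promoter windows (%, exact 95% intervals) holding each of 6 short motifs on either strand, for the 169 lncRNA windows under one of the 650 peaks, all lncRNA windows, the protein-coding windows under an LV-HOXA5 peak and all windows. The AP-1 share of the first group, 27.2%, stands apart from the 10.4% of all lncRNA windows, while the homeodomain (TAATTA) shares are 7.1% and 7.33%. No allowance was made for the difference in G+C content or in distance from protein-coding ends.

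MicroRNA genes were a small class with mixed peaks. Of the 9 peaks nearest a miRNA, RefSeq mature sequences matched 6, and they are printed because the genes differ in every seed, with bases 2 to 8, which pair with targets, in capitals.
hsa-miR-10526-3p: aAAAGGGGgcugagguggag
hsa-miR-3175: cGGGGAGAgaacgcagugacgu
hsa-miR-935: cCAGUUACcgcuuccgcuaccgc
hsa-miR-4439: gUGACUGAuaccuuggaggcau
hsa-miR-658: gGCGGAGGgaaguagguccguuggu
hsa-miR-30a-3p: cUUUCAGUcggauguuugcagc
hsa-miR-30a-5p: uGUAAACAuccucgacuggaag

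The 7 mature sequences had 7 different seeds. At MIR3175 (27 fragments), MIR658 (15) and MIR639 (19, fold 6.20) the peak held the gene's end, and the folds at MIR3175 and MIR658 were 4.53 and 5.22. MIR935, 665 bp from its peak, had 59 fragments and a fold of 5.15. MIR30A, 693 bp away, had 13 fragments, MIR10526, 899 bp away, 12, and MIR4439, 138 bp away, 9. The pair MIR6724-1 and MIR6724-3 lay in the ribosomal interval of chromosome 21 described above.

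Pseudogene peaks held both the tallest signals and a family with sharp ones. The highest pileup of all 650 lay at copies of mitochondrial genes on chromosome 1, MTATP8P1 and its neighbours (chr1:633893-634173), with 1513 fragments on a background of 195. MTCYBP13 on chromosome 17 (chr17:22521339-22521592) had 836 fragments and a fold of 35.6, the highest fold of the whole LV-HOXA5 list. These segments are near-identical to mitochondrial DNA, of which a cell holds many copies, and the part of misplaced mitochondrial reads was not tested. Of 513 mitochondrial gene copies, 6 (1.17%) had one of these peaks, beside 1.13% of all pseudogenes, and 12 had any LV-HOXA5 peak. Peaks set aside for a control overlap included MTND2P28 (1256 fragments) and MTCO1P12 (488), also on chromosome 1. On chromosome Y, DUX4L16 and DUX4L18 had 191 and 181 fragments with folds of 3.17 and 3.28 and backgrounds of 59.5 and 54.5, and CDC27P10 on chromosome 21 had 152 fragments and a fold of 1.77.

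FAM86 pseudogenes, copies of a protein methyltransferase gene, differed from these. Of 12 such genes, 9 had one of these peaks, beside 1.13% of all pseudogenes, and a further gene, FAM86C2P, had a peak of 35 fragments and a fold of 7.15 that overlapped a control peak. The 6 peaks nearest a FAM86 gene had 29 to 77 fragments, folds of 5.45 to 8.70 and backgrounds of at most 8.31. The tallest was FAM86B3P with 77 fragments and a fold of 8.38, and FAM86FP (chr12:8243099-8243634) had 53 and 8.70. They were spread over chromosomes 4, 8, 11 and 12. Of 51 DUX4L genes 9 had one of these peaks, with folds of 2.75 to 6.57, and 13 had any LV-HOXA5 peak. The DUX4L peaks set aside for a control overlap included some with higher folds, 17.6 at DUX4L44, 16.9 at DUX4L26 and 11.25 at DUX4L9. Copies of small RNA genes had low shares, as did pseudogenes as a whole, of which 1.13% (0.973 to 1.30) had one of these peaks. Peaks lay at 11 of 1817 snRNA pseudogenes (0.605%), 3 of 684 7SL pseudogenes and none of 293 7SK pseudogenes, beside 28.9% of snRNA genes. For 1996 copies of ribosomal protein genes it was 13 (0.651%), with pileups of 12 to 25 fragments. These families were defined from gene names after their peaks were seen.

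The rule leaves out every peak within 1000 bp of a protein-coding end, which fixes part of the distance from such ends, and the values are a description only. Of these peaks, 47 of the 650 (7.23%) lay within 3000 bp of one, 370 (56.9%) lay beyond that but within 50000 bp and 233 (35.8%) farther away, and 143 (22%) lay inside a protein-coding gene. The median distance was 15681 bp for tRNA, 24852 bp for snRNA, 30513 bp for lncRNA and 40567 bp for pseudogene peaks. Among lncRNA peaks 101 of 347 (29.1%, 24.4 to 34.2) lay inside a protein-coding gene, against 7 of 71 tRNA (9.86%) and 2 of 41 snRNA peaks (4.88%). Whether peaks inside a protein-coding gene lie at an inner start of that gene was not tested.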

How the data were processed

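Peaks were used as the authors deposited them, one list for each library, on GRCh38 coordinates. Per the submitters' processing notes, fastp, Bowtie2, deepTools, MACS2 and ChIPseeker were used. The file headers state MACS 2.2.7.1 on paired-end fragments with a q-value threshold of 0.05, no control library and an effective genome size of 2.70e+09. Per the file headers, the deposited pileup is an unscaled signal, the fold enrichment a ratio to local background within the library, and the p-value and q-value are given as −log10. The second deposited form of each list held the same positions for all 8043 and 635 peaks.

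Distances to gene ends were computed in Python 3.11.15 with pandas 2.3.3 against the RefSeq gene table. Of its 59792 genes, 794 with positions on scaffolds, alternate loci or patches were left out. The local background is (pileup + 1) / fold enrichment − 1. Intervals are exact binomial (Clopper-Pearson) at 95%, or order-statistic intervals for medians. The selection was tested on simulated peaks and genes, where it returned the same peaks as a search over every pair. In each class, the 5 peaks of highest pileup and the 3 of highest fold were named, and all where a class held 8 or fewer, with every gene of 4 lists that had a peak. Members and lists were chosen with earlier results of these data known. With 1 library a condition no test between conditions was run. Other thresholds, distances and class rules were tried as alternatives. Sequences came from RefSeq tables, and no genome sequence was used here.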

Additional observations from a re-analysis of the deposited data

Results flagged for a closer look

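The control library, which served only to set peaks aside, had signal of its own at non-coding gene ends. Of its 635 peaks, 52 (8.19%, 95% exact interval 6.18 to 10.6) lay at non-coding ends only, peaks that overlap the other library included. The interval holds the 8.08% of the LV-HOXA5 list, but that share leaves such overlaps out. With them kept, the LV-HOXA5 list had 691 of 8043. The 52 control peaks were nearest a pseudogene in 24 cases, a lncRNA in 16, a snRNA gene in 6, an rRNA gene in 3 and a miRNA gene in 2, with 1 of another kind. None was nearest a tRNA gene, a class where only 8 of 71 LV-HOXA5 peaks scale to the lowest control pileup. Of the 52, 41 overlapped an LV-HOXA5 peak and 11 did not, among them peaks at LOC124903751 (21 fragments, fold 11.0) and MIR10396A (32 fragments, fold 10.0). There is no further library to set these against.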

How the results depend on the processing

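The 9 main values were recomputed under 10 other settings, and the shares by class of the nearest end under 1 more, which counts every gene within 1000 bp. They stayed within 1.5 times (counts) or within their 95% interval (shares and medians) in 77 cases and moved in 16. Of these moves, 8 came from keeping only peaks with a fold at or above the median of the LV-HOXA5 list, which left 279 peaks at 347 genes, with 59.9% over an end, 58.8% nearest a lncRNA, 20.1% nearest a pseudogene, 9.09% of tRNA genes with a peak, a median fold of 5.69 and a median pileup of 22. A filter on fold lowers the counts and raises the median fold by construction, so those moves do not measure how stable the values are. A q-value of at most 0.001 gave a median fold of 4.86 and pileup of 20. At 500 bp, 59.1% lay over an end and 20.7% were nearest a pseudogene. At 3000 bp, 30.2% lay over an end and 6.67% were nearest a tRNA gene. By summit distance 52.3% of the peaks held an end. Counting every gene within 1000 bp, 58.5% had a lncRNA. Keeping peaks with a control overlap gave 691 peaks. Settings chosen after seeing the data, which kept scaffold positions (655 peaks) or dropped peaks with a background of 10 or more (608), moved none of the main values. Without those high-background peaks 92.9% of snRNA peaks held an end, in place of 82.9%.

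No paired analysis was possible because each condition had 1 library. Depth limits the comparison with the control, since 544 peaks scale to fewer fragments than the lowest control peak. Peaks were called against local background in the same library, so copy number and accessible chromatin were not separated from antibody signal. Gene ends carry no strand for tRNA, snRNA and pseudogene entries, and near-identical copies share reads.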

Other observations

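Across chromosomes, the 650 peaks were most frequent for the number of non-coding genes on chromosome 21, with 31 peaks or 5.19 per 100 such genes, and on chromosome 17, with 53 peaks or 3.50 per 100. They made up 17.4% (95% exact interval 12.2 to 23.8) of all 178 LV-HOXA5 peaks of chromosome 21 and 12.5% (9.51 to 16.03) of the 424 of chromosome 17. By that share chromosome 6 came between, with 41 of 295 peaks (13.9%, 10.2 to 18.4). On chromosome 21, 10 of the 31 lay in the ribosomal interval and 17 were nearest a lncRNA. The X chromosome had 7 peaks, 0.469 per 100 non-coding genes, and chromosome 13 had 7, 0.589 per 100. Chromosome 1 held 78 peaks, of which 21 were nearest a snRNA gene, 19 nearest a tRNA gene, 17 nearest a lncRNA and 17 nearest a pseudogene. On chromosome 2, 29 of 38 were nearest a lncRNA.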
